A study of Mus musculus with 4 samples.

Results

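The interstitial fibrillar collagens are the collagen chains that build the banded fibrils of loose and dense connective tissue outside cartilage. They were taken by symbol from the count files as *Col1a1* and *Col1a2* (type I), *Col3a1* (type III), *Col5a1*, *Col5a2* and *Col5a3* (type V) and *Col24a1* (type XXIV). These are 7 of the 43 collagen genes and 7 of the 23284 genes counted. RNA-seq was done on Osr1+ cells, sorted by FACS as live GFP+ cells from C57BL/6J mouse limbs at E13.5. Both genotypes carried the *Osr1* GCE allele, an eGFP-IRES-CreERt2 knock-in at the *Osr1* locus that marks *Osr1*-expressing cells and disrupts the gene. The 2 controls were *Osr1* GCE/+ and kept a wild-type allele, the 2 mutants were *Osr1* GCE/GCE, and no wild-type limb without GCE was in the comparison. The question was how the collagen transcripts of these connective tissue cells differ when *Osr1*, a zinc finger transcription factor, is lost. The allele that drives the GFP gate is also the mutation, so a change in which cells pass the gate and a change within those cells cannot be told apart.

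Fibrillar procollagens are secreted as helices of 3 chains, trimmed at their ends and assembled into fibrils that lysyl oxidases then crosslink. Type I collagen is the bulk component of the fibril and is mostly a heterotrimer in which the chain from *Col1a1* outnumbers the chain from *Col1a2*. Type III collagen is a homotrimer of the *Col3a1* chain that is plentiful in embryonic and elastic connective tissue, and type V collagen, mostly built from *Col5a1* and *Col5a2* chains, starts fibrils and limits their diameter. The *Col5a3* chain enters a minor form of type V collagen, and *Col24a1* encodes a fibrillar chain described in developing bone.

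The helix is spelled out in the genes themselves, because glycine must recur along each chain and glycine is encoded by GG followed by any base. To show this feature of the family, an exon of 54 bases from the helix region of 5 members is given 5′ to 3′ on the coding strand. Each is the first such exon that lies in frame inside the longest run of glycine codons. The pattern was therefore fixed by the choice of genes and exons and is shown as an illustration only. Capitals mark the glycine codons, 6 in each exon. Coordinates are those of the GRCm38 build with GENCODE exons, and the exons are *Col1a1* exon 8 at chr11:94939904-94939957 (plus strand), *Col1a2* exon 8 at chr6:4515481-4515534 (plus), *Col3a1* exon 6 at chr1:45325360-45325413 (plus), *Col5a3* exon 15 at chr9:20801068-20801121 (minus) and *Col24a1* exon 7 at chr3:145328731-145328784 (plus).
Col1a1: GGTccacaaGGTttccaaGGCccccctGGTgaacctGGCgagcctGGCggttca
Col1a2: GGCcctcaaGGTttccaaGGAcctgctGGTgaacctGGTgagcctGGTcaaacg
Col3a1: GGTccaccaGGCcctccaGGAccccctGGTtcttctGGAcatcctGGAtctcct
Col5a3: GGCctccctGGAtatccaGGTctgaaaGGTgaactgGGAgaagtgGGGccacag
Col24a1: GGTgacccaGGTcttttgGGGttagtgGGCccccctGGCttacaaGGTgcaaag

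The longest unbroken run of such triplets held 338 in *Col1a1*, 339 in *Col1a2*, 344 in *Col3a1*, 338 in *Col5a1*, 339 in *Col5a2* and 337 in *Col5a3*. *Col24a1* stood apart with a run of 216 triplets, 37.4% of its coding codons, while the run took 55.2 to 74.1% of the codons of the other 6. Exons lying wholly inside the run numbered 35 in *Col24a1* and 41 to 48 in the others, and 21 to 31 of them per gene had exactly 54 bases. Despite this shared design, no stretch of 50 bases, the read length of the study, was common to the transcripts of any pair of members, so reads that matched exactly could be assigned to their own gene. The transcripts of *Col3a1* and *Col5a1* shared such stretches with annotated genes inside or opposite them, none of which was in the count files.

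The members lie at 6 places in the genome. *Col1a1* spans chr11:94936224-94953042, *Col1a2* chr6:4504814-4541544, *Col5a1* chr2:27886425-28039514 and *Col24a1* chr3:145292472-145552011, all on the plus strand, and *Col5a3* spans chr9:20770050-20815067 on the minus strand. *Col3a1* (chr1:45311538-45349706, plus) and *Col5a2* (chr1:45374321-45503282, minus) are neighbours that point at each other with 24614 bases between their ends. The exons of *Col5a1* overlap those of a pair of non-coding genes on the opposite strand, 2810430I11Rik and Gm13372. Reads of such partners cannot be separated from *Col5a1* reads, because the library kit did not keep strand.

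Counts per sample summed to between 52121596 and 61402140, and 3 counts, taken as the floor of detection, were 0.0489 to 0.0576 CPM. CPM are counts scaled to a common library total, here with TMM factors of edgeR, which lay between 0.994 and 1.01. *Osr1* checked the labels, with 81.9 and 79.1 CPM in GCE/+ replicates 1 and 2 and 11.9 and 13.9 CPM in GCE/GCE replicates 1 and 2. *Xist*, expressed from the inactive X chromosome, reached 1142 CPM in GCE/GCE replicate 1, with no value over 2.63 CPM elsewhere, so the sexes of the embryos were not balanced between genotypes. The sorted cells held the mesenchymal markers of their label, all 6 tested at 49.1 to 1281 CPM per sample, none called between genotypes. Markers of other cells were present and some moved with genotype. The 8 cartilage markers summed to 183 to 266 CPM in GCE/+ and 378 to 389 CPM in GCE/GCE cells (3 called higher), the 4 tendon markers to 196 to 238 and 294 to 326 CPM (2 called higher), and the 5 osteoblast markers to 45.7 to 49.3 and 83.0 to 86.4 CPM (1 of 4 tested called higher). The osteoblast sum was carried by *Runx2*, with 31.6 and 37.4 against 68.2 and 74.7 CPM. *Sp7*, with 1.49 and 1.82 against 2.45 and 1.83 CPM, was higher in both GCE/GCE samples but not called. *Alpl* and *Ibsp* overlapped between genotypes and *Bglap* was at or near 0. The 10 macrophage markers summed to 303 to 307 CPM in GCE/+ and 133 to 187 CPM in GCE/GCE cells, with 8 called lower. The 7 endothelial markers summed to 92.6 to 113 CPM in GCE/+ and 77.5 to 92.4 CPM in GCE/GCE cells, and edgeR called none of them or of the skeletal muscle, erythroid, epithelial and Schwann markers. Of these lists, unadjusted p-values under 0.05 were found for 4 of 7 endothelial, 2 of 8 skeletal muscle and 2 of 6 epithelial markers. DESeq2 called the endothelial *Tie1* as lower and the epithelial *Krt18* as higher. For all tested genes, 10.5% had an unadjusted p under 0.05 in edgeR, and 1.82% were called by edgeR. DESeq2 called 3.45% of the genes it tested. The globin gene *Hba-a1* was at 0 in every sample. The part of any of these in the collagen results was not tested, and in bulk RNA fewer cells of a type cannot be told apart from less RNA per cell.

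Interstitial fibrillar collagens were among the most abundant transcripts of these cells. Together they took 2.19 and 2.00% of all counts in GCE/+ replicates 1 and 2 and 1.93 and 1.68% in GCE/GCE replicates 1 and 2. To compare genes, CPM were divided by the exon length in kilobases (CPM per kb), and on this scale the order was the same in every sample: *Col3a1*, *Col1a2*, *Col1a1*, *Col5a2*, *Col5a1*, *Col24a1* and *Col5a3*. Ranks by mean CPM per kb were taken among the genes tested between genotypes that had an exon length. *Col3a1* ranked 4 in GCE/+ cells and 10 in GCE/GCE cells, *Col1a2* ranked 22 and 27, and *Col1a1* ranked 63 and 70. *Col5a2* ranked 195 and 186 and *Col5a1* ranked 248 and 258. *Col24a1*, at 7224 and 6148, and *Col5a3*, at 11713 and 12566, lay far down the list. No neighbours in this order overlapped, since the lowest of the 4 samples for each gene stood above the highest for the next.

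**Figure D1:**
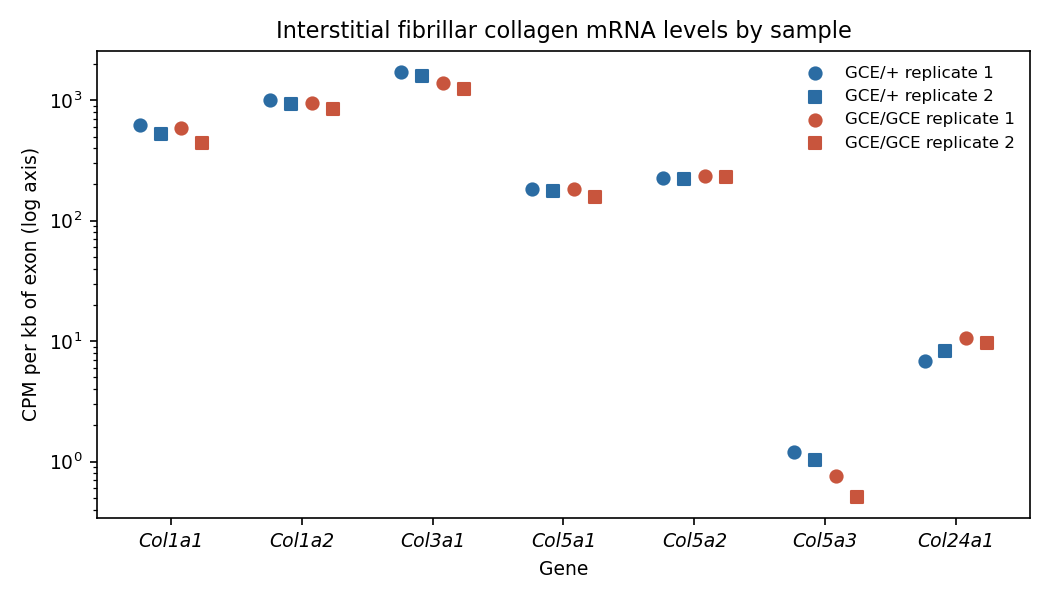
Level of each of the 7 interstitial fibrillar collagen genes in each of the 4 samples, as CPM per kilobase of exon on a log10 axis, with circles for replicate 1, squares for replicate 2 and colour for genotype. The genes fall into a high group from *Col5a1* to *Col3a1* (157 to 1716 CPM per kb), then *Col24a1* (6.90 to 10.7) and *Col5a3* (0.513 to 1.21).

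The genotypes were compared gene by gene with edgeR's quasi-likelihood test on the counts (GCE/GCE against GCE/+, two-sided, Benjamini-Hochberg adjustment over 15645 genes, called at an adjusted p under 0.1). None of the 7 members was called, against 1.82% of all tested genes (0.895% higher and 0.927% lower). At an unadjusted p under 0.05 there were 2, *Col5a3* and *Col24a1*, where 10.5% of all tested genes passed. DESeq2, the tool of the study's methods, called 3 at an adjusted p under 0.1, *Col3a1* and *Col5a3* as lower and *Col24a1* as higher, with 3.45% of the genes it tested called. In 4 of the 7, the GCE/GCE samples did not overlap the GCE/+ samples, a pattern found in 38.4% of all tested genes. The median log2 fold change of the 7 was -0.12, and that of all tested genes was 0.003. With 2 samples a genotype, the p-values speak only of the spread between these embryos.

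Among the type I chains, *Col1a1* had 3683 and 3109.8 CPM in GCE/+ replicates 1 and 2 and 3463 and 2627 CPM in GCE/GCE replicates 1 and 2. Replicate 1 was the higher sample in both genotypes and the groups overlapped. The log2 fold change was -0.16 ± 0.18 (SE, n = 2 per genotype), with a 95% interval of -0.57 to 0.26 (adjusted p = 0.896, edgeR). *Col1a2* had 5421 and 4963 CPM in the GCE/+ samples against 5059 and 4483 CPM in the GCE/GCE samples. Again the groups overlapped, GCE/GCE replicate 1 lying above GCE/+ replicate 2, and the log2 fold change of -0.12 ± 0.17 had an interval of -0.51 to 0.27 (adjusted p = 0.928, edgeR). Leaving out each sample gave -0.38 (without GCE/GCE replicate 1) to 0.027 (without GCE/GCE replicate 2) for *Col1a1*, and -0.22 to -0.038 on leaving out the same samples for *Col1a2*. Without GCE/+ replicate 1 or 2 the values were -0.037 and -0.27 for *Col1a1* and -0.064 and -0.18 for *Col1a2*.

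For type III collagen, *Col3a1* had 9550.0 and 8788 CPM in the GCE/+ samples against 7718 and 6846 CPM in the GCE/GCE samples. Both GCE/GCE samples were lower than both GCE/+ samples, and no other member had as large a difference in CPM. The log2 fold change was -0.33 ± 0.20, with an interval of -0.79 to 0.12 that includes 0 (adjusted p = 0.684, edgeR; 0.0519 by DESeq2). Whether *Col3a1* was called therefore depended on the tool, while the estimate was -0.33 under both. Its adjusted p ranged from 0.0519 to 0.737 over the alternatives that kept all 4 samples.

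Among the type V chains, *Col5a1* had 1549 and 1479 CPM in the GCE/+ samples against 1534 and 1323 CPM in the GCE/GCE samples, overlapping groups with a log2 fold change of -0.08 ± 0.12 (adjusted p = 0.930, edgeR), or -0.20 without GCE/GCE replicate 1 and 0.018 without GCE/GCE replicate 2. *Col5a2*, which encodes its usual partner chain, had 1489 and 1481 CPM in the GCE/+ samples against 1571 and 1516 CPM in the GCE/GCE samples. Both GCE/GCE values were the higher ones, yet the log2 fold change was only 0.06 ± 0.11, with an interval of -0.21 to 0.32 (adjusted p = 0.957, edgeR), and its sign turned with an offset for transcript length (-0.020) and its size dropped to 0.023 without GCE/GCE replicate 1. *Col3a1* and *Col5a2*, side by side on chromosome 1, thus had GCE/GCE values on opposite sides of the GCE/+ values.

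*Col5a3* was the scarcest member, with 449 and 331 counts in GCE/+ replicates 1 and 2 and 268 and 192 counts in GCE/GCE replicates 1 and 2. This corresponds to 7.37 and 6.33 CPM in the GCE/+ samples against 4.62 and 3.14 CPM in the GCE/GCE samples, all above the floor. Both GCE/GCE samples were lower, with GCE/GCE replicate 2 the lowest. The log2 fold change was -0.82 ± 0.21, a level 0.565 times that of GCE/+ cells, with an interval of -1.31 to -0.34 (adjusted p = 0.137, edgeR; 0.0356 by DESeq2). With no filter its adjusted p was 0.228 (edgeR). The log2 fold change was -0.71 without GCE/+ replicate 1 and -0.93 without GCE/+ replicate 2. It was -1.14 without GCE/GCE replicate 1 and -0.57 without GCE/GCE replicate 2. Each of these fits leaves 1 sample in a genotype, so only the effect sizes are given.

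*Col24a1* differed the other way. It had 49.3 and 58.7 CPM in GCE/+ replicates 1 and 2 (3000 and 3068 counts) and 76.2 and 69.3 CPM in GCE/GCE replicates 1 and 2 (4424 and 4245 counts), both GCE/GCE samples being higher. The log2 fold change was 0.43 ± 0.11, a level 1.35 times that of GCE/+ cells, with an interval of 0.19 to 0.67 (adjusted p = 0.125, edgeR; 0.0284 by DESeq2). On leaving out a sample, which leaves 1 in a genotype, the log2 fold change lay between 0.30 (without GCE/+ replicate 1) and 0.56 (without GCE/+ replicate 2). Over the alternatives that kept all 4 samples, the adjusted p of *Col24a1* ranged from 0.0284 to 0.233.

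**Figure D2:**
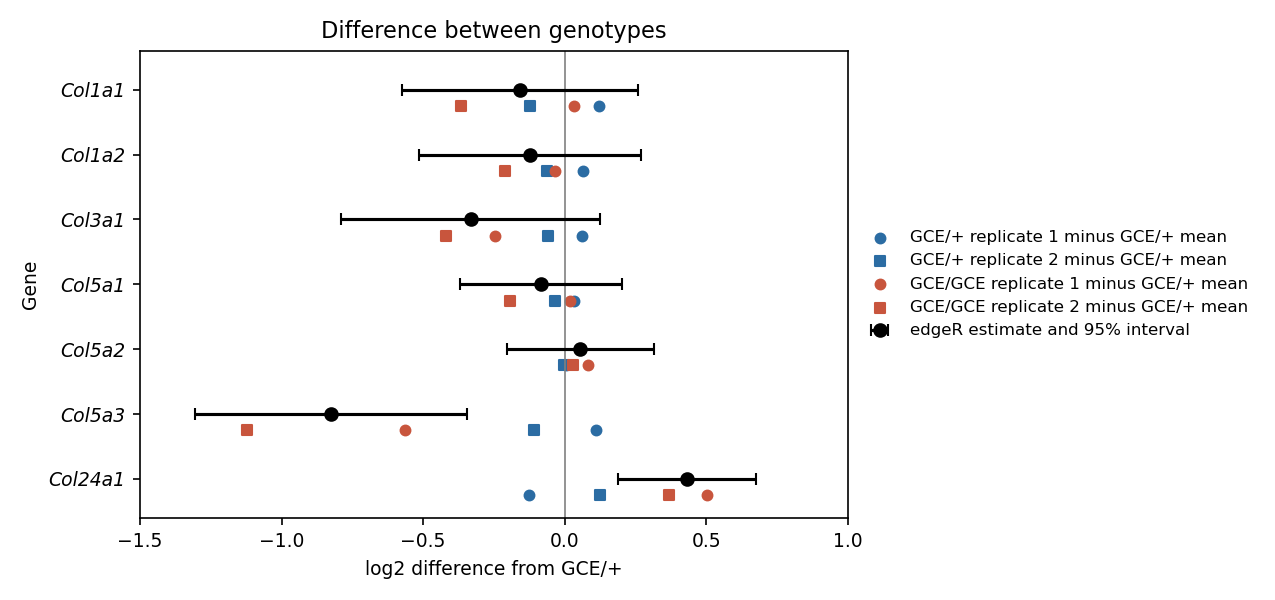
Difference between genotypes for each member on the log2 scale, where black points and bars are the edgeR log2 fold change of GCE/GCE against GCE/+ with its 95% interval, and coloured points are the log2 CPM of each sample minus the mean of the GCE/+ samples. Of the 7 intervals, only those of *Col5a3* (-1.31 to -0.34) and *Col24a1* (0.19 to 0.67) exclude 0, before adjustment for the number of genes tested.

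Shares within the collagen transcriptome do not depend on the scaling between libraries. The 7 members took 75.3 and 74.2% of all collagen counts in GCE/+ replicates 1 and 2 and 71.3 and 71.0% in GCE/GCE replicates 1 and 2. Both GCE/GCE shares were lower, with a difference of means of -3.61 percentage points, larger than the spread within a genotype (SD 0.813 points in GCE/+ and 0.241 points in GCE/GCE cells, n = 2 each). The exact two-sided permutation p was 0.333, the smallest that 2 against 2 samples allow (0.467 adjusted over the 7 exact tests made). The Wilson 95% intervals of the shares were at most 0.0955 points to either side and cover counting error only. With the cartilage fibrillar collagens left out of the total, the shares were 77.5 and 77.4% in the GCE/+ samples against 75.7 and 76.3% in the GCE/GCE samples, and the difference of means was -1.45 points.

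Among the members, type III was the type with the lower share in both GCE/GCE samples. *Col3a1* made up 33.1 and 32.8% of collagen counts in the GCE/+ samples against 28.3 and 28.8% in the GCE/GCE samples. The type I chains together held 31.5 and 30.1% in the GCE/+ samples against 31.3 and 29.9% in the GCE/GCE samples, which overlapped, and *Col1a2* alone stayed between 18.5 and 18.9% in all 4 samples. The type V chains held 10.6 and 11.1% in the GCE/+ samples against 11.4 and 12.0% in the GCE/GCE samples, and *Col24a1* held 0.171 and 0.219% against 0.280 and 0.292%, both higher in the GCE/GCE samples. Without *Col3a1* in members and total, the share of the other members was still lower in both GCE/GCE samples, with a difference of means of -2.76 points.

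**Figure D3:**
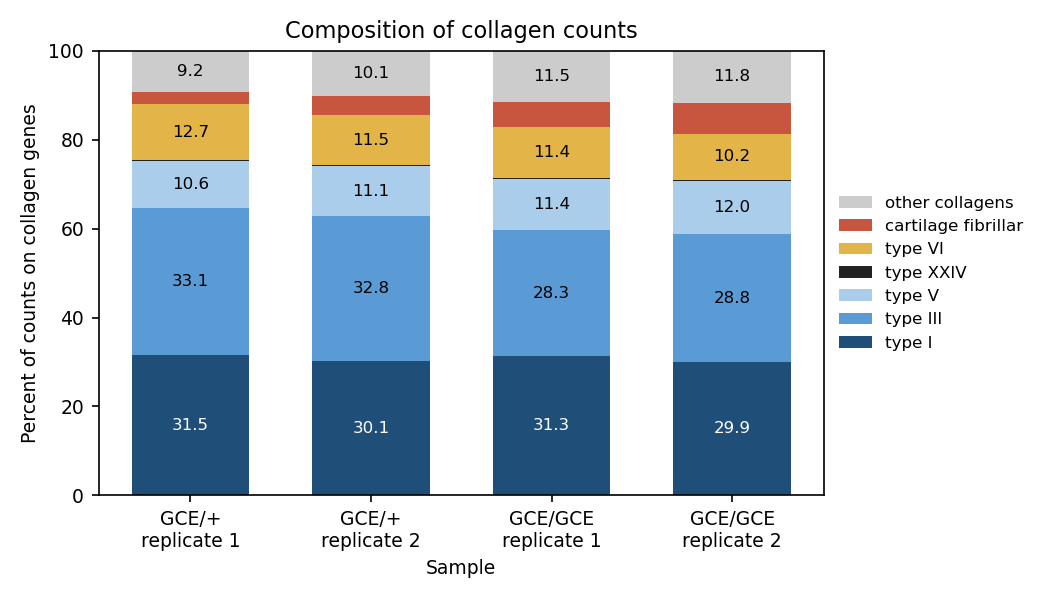
Stacked shares of all collagen counts in each of the 4 samples, in percent, by collagen type. Type III takes 33.1 and 32.8% in the GCE/+ samples and 28.3 and 28.8% in the GCE/GCE samples, type I stays between 29.9 and 31.5%, and the cartilage fibrillar collagens take 2.77 and 4.20% against 5.76 and 7.004%.

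Ratios between chains of the same collagen type were read in each sample, again free of library scaling. For type I, the *Col1a1* to *Col1a2* count ratio was 0.679 and 0.627 in GCE/+ replicates 1 and 2 and 0.685 and 0.586 in GCE/GCE replicates 1 and 2. Per exon length it was 0.613 and 0.565 in the GCE/+ samples against 0.617 and 0.528 in the GCE/GCE samples, below 1 in every sample. The GCE/GCE values enclosed the GCE/+ values, and the log2 difference of means was -0.04 (exact permutation p = 1), with a sign that turned when GCE/+ replicate 1 (0.015) or GCE/GCE replicate 2 (0.069) was left out.

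For type V, the *Col5a1* to *Col5a2* count ratio was 1.04 and 0.998 in the GCE/+ samples against 0.976 and 0.873 in the GCE/GCE samples. Both GCE/GCE ratios were lower, with a log2 difference of -0.14 (exact permutation p = 0.333, adjusted 0.467). It was -0.062 without GCE/GCE replicate 2 and -0.22 without GCE/GCE replicate 1. On the log2 scale, the *Col5a3* to *Col5a1* count ratio was -7.71 and -7.87 in the GCE/+ samples against -8.38 and -8.72 in the GCE/GCE samples, a difference of -0.76. The *Col5a3* to *Col5a2* ratio was -7.66 and -7.87 in the GCE/+ samples against -8.41 and -8.92 in the GCE/GCE samples, a difference of -0.90. In both ratios the GCE/GCE samples lay below the GCE/+ samples (exact permutation p = 0.333 each). *Col5a3* was thus a smaller part of the type V transcripts in both GCE/GCE samples.

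**Figure D4:**
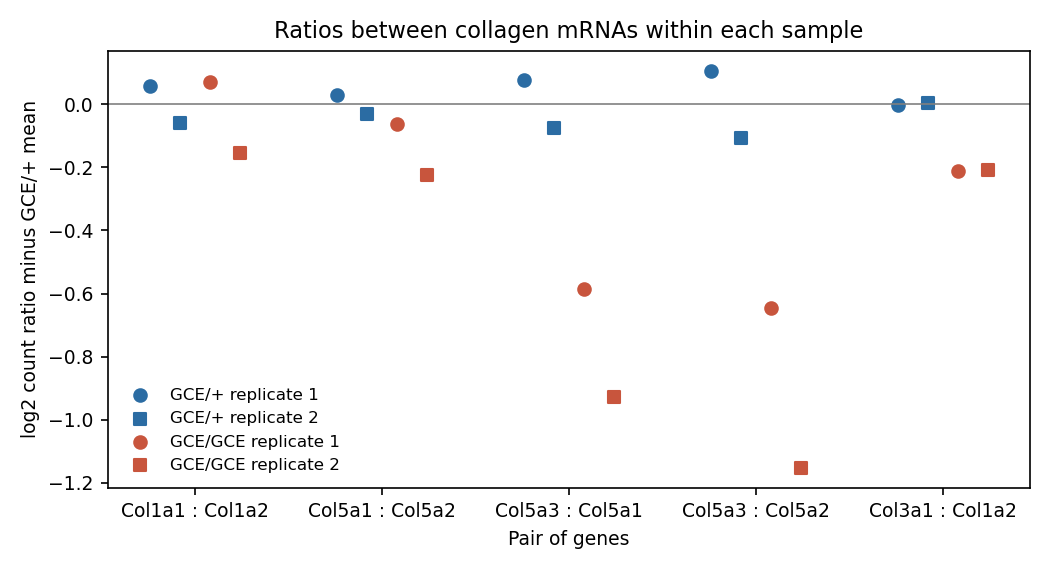
Log2 ratios of counts in each sample, each relative to its GCE/+ mean, for chains of type I and type V collagen and for *Col3a1* against *Col1a2*. That last pair was chosen after its values were seen. The *Col1a1* to *Col1a2* ratio overlaps between genotypes. The *Col5a1* to *Col5a2* ratio (difference of -0.14), the *Col5a3* ratios (-0.76 and -0.90) and the *Col3a1* to *Col1a2* ratio do not.

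Over all 21 pairs of members, 16 ratios did not overlap between the genotypes, against 68.3% of the 903 pairs among all 43 collagen genes. The pair *Col1a2* and *Col3a1* is given as an example chosen after its values were seen, because its spread was small. Its count ratio was 0.568 and 0.565 in the GCE/+ samples against 0.655 and 0.655 in the GCE/GCE samples. The log2 difference of 0.21 compares with SDs of 0.0052 and 0.0010 within the genotypes (n = 2 each). *Col5a3* and *Col24a1*, also picked from their values, had the largest difference of the 21. Their *Col5a3* to *Col24a1* count ratio was 0.150 and 0.108 in the GCE/+ samples. It was 0.0606 and 0.0452 in the GCE/GCE samples, a log2 difference of -1.28.

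The cartilage fibrillar collagens, the members' closest relatives, form the fibrils of cartilage. Their sum was 801 and 1126 CPM in the GCE/+ samples against 1570 and 1664 CPM in the GCE/GCE samples, higher in both GCE/GCE samples, while the interstitial sum was 21749 and 19886 CPM in the GCE/+ samples against 19425 and 16866 CPM in the GCE/GCE samples, lower in both. The interstitial to cartilage count ratio was therefore 27.2 and 17.7 in the GCE/+ samples against 12.4 and 10.1 in the GCE/GCE samples. This log2 difference of -0.97 is the test of the difference between the groups of genes, with an exact permutation p of 0.333 (adjusted 0.467). Of the 4 genes, *Col11a1* rose (256 and 325 to 501 and 500 CPM, log2 fold change 0.78 ± 0.12, adjusted p = 0.0324, edgeR). *Col2a1* (0.84 ± 0.19), *Col11a2* (0.98 ± 0.25) and *Col27a1* (0.23 ± 0.08) were higher in both GCE/GCE samples with adjusted p of 0.106, 0.132 and 0.335. Cartilage markers, given above, were higher in the same samples.

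Type VI collagen, which forms beaded filaments around cells and fibrils, had fewer counts than types I and III in every sample. Its 6 chains summed to 3665 and 3073 CPM in the GCE/+ samples against 3108 and 2432 CPM in the GCE/GCE samples. They took 12.7 and 11.5% of collagen counts in the GCE/+ samples against 11.4 and 10.2% in the GCE/GCE samples. A lower share in both GCE/GCE samples was thus not particular to the members (difference of means -1.26 points for type VI). The interstitial to type VI count ratio was 5.93 and 6.47 in the GCE/+ samples against 6.25 and 6.94 in the GCE/GCE samples, which overlapped (log2 difference 0.09, exact permutation p = 0.667, adjusted 0.778). Leaving out a sample moved this difference to 0.025 (GCE/+ replicate 1), 0.15 (GCE/+ replicate 2), 0.16 (GCE/GCE replicate 1) or 0.012 (GCE/GCE replicate 2). The log2 fold changes were -0.26 for *Col6a1* and *Col6a2*, -0.30 for *Col6a3*, -0.80 for *Col6a4*, -0.72 for *Col6a5* and -0.48 for *Col6a6*. None was called by edgeR, where 3 had an unadjusted p under 0.05, and DESeq2 called *Col6a5* (adjusted p = 0.0675) and *Col6a6* (adjusted p = 0.0666) as lower. Among all 36 collagen genes that are not members, edgeR called 6 or 16.7%, against 1.82% of all tested genes (0.895% as higher). All 6 were higher in GCE/GCE cells: *Col8a1*, *Col8a2*, *Col9a1*, *Col9a2*, *Col11a1* and *Col25a1*. This count ranged from 3 with no filter to 12 (9 of them higher) with length offsets and the replicate block. It was 7 by DESeq2.

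The machinery that folds, trims, crosslinks and binds fibrillar collagen was described with 5 lists. Of 19 tested genes for folding and modification, 1 rose and none fell, and 3 had an unadjusted p under 0.05. The median log2 fold change was -0.11. The riser was *P4ha3*, which encodes a catalytic subunit of prolyl 4-hydroxylase. It had 37.5 and 27.0 CPM in the GCE/+ samples against 61.2 and 47.8 CPM in the GCE/GCE samples (0.76 ± 0.17, adjusted p = 0.0988, edgeR), and DESeq2 called 2 of the list as higher. The call of *P4ha3* was lost under 6 of the alternative fits that kept all 4 samples (adjusted p up to 0.203), RLE scaling among them. Over all alternatives its log2 fold change was 0.54 to 1.01. *Mia3* was at 0 in every sample.

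None of the 13 genes for procollagen processing and crosslinking was called by edgeR (3 had an unadjusted p under 0.05, and DESeq2 called 1), with a median of 0.11. The lowest p-values were those of *Loxl2*, a lysyl oxidase family enzyme, with 513 and 512 CPM in the GCE/+ samples against 695 and 623 CPM in the GCE/GCE samples (0.36 ± 0.10, adjusted p = 0.166, edgeR), and of *Adamts3*, a procollagen N-propeptidase, with 23.3 and 24.1 against 28.7 and 29.8 CPM (0.30 ± 0.10, adjusted p = 0.251).

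Of 17 fibril-associated genes, 1 rose and 1 fell, with a median of -0.05, and both encode small leucine-rich proteoglycans that bind collagen fibrils. Fibromodulin (*Fmod*), abundant in tendon and cartilage, rose from 52.6 and 43.6 CPM to 88.5 and 77.7 CPM (0.79 ± 0.11, adjusted p = 0.0300, edgeR). Keratocan (*Kera*) fell from 117 and 104 CPM to 64.1 and 71.0 CPM (-0.71 ± 0.09, adjusted p = 0.0249). Both calls held under all alternative fits that kept all 4 samples. In edgeR, 7 of the 17 had an unadjusted p under 0.05, beside 10.5% of all tested genes. DESeq2 called 2 of this list as higher (*Fmod* and *Comp*) and 3 as lower (*Kera*, *Dcn* and *Lum*). Of these, edgeR did not call *Comp* (1.08 ± 0.26, adjusted p = 0.120), *Dcn* (-0.68 ± 0.17, adjusted p = 0.131) or *Lum* (-0.34 ± 0.11, adjusted p = 0.233).

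Of 9 receptors, 1 rose: *Itga11*, the alpha subunit of a collagen-binding integrin, from 27.8 and 28.9 CPM to 40.7 and 37.4 CPM (0.46 ± 0.10, adjusted p = 0.0781, edgeR). It lost the call with no filter (adjusted p = 0.150, edgeR) and with the replicate block (adjusted p = 0.115). The log2 fold change was 0.43 without GCE/+ replicate 1 and 0.39 without GCE/GCE replicate 1, which had the highest value. Of the 9 receptors, 3 had an unadjusted p under 0.05 in edgeR. Of 9 tested genes for degradation none was called by edgeR, 1 had an unadjusted p under 0.05, and DESeq2 called 1. This was *Timp3*, an inhibitor of metalloproteinases, with 272 and 297 CPM in the GCE/+ samples against 364 and 383 CPM in the GCE/GCE samples (0.39 ± 0.09, adjusted p = 0.106, edgeR), followed by *Timp2* (0.14 ± 0.09, adjusted p = 0.728). The medians of these lists were -0.004 and 0.08, beside 0.003 for all tested genes.

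The genes whose log2 CPM profile over the 4 samples lay nearest to that of the summed members were searched for among the 4814 genes that averaged 50 CPM or more. They were *Crtc2* (Euclidean distance 0.031), *Eps8* (0.035), *Rabggtb* (0.036), *Zfp703* (0.038) and *Flot2* (0.046). Each was highest in GCE/+ replicate 1 and lowest in GCE/GCE replicate 2, as the summed members were, and with 4 samples this is a description of the profile only.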

How the data were processed

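The authors sequenced FACS-sorted cells with an unstranded kit (TruSeq RNA v2, paired reads of 50 bases), mapped the reads to mm9 with TopHat2 and counted fragments per gene with HTSeq in its strict intersection mode. The deposited values are raw counts, 1 per gene symbol, from 2 embryos per genotype, and samples were grouped by their labels. The members and gene lists were chosen with earlier results of these data known.

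Genes were filtered with filterByExpr (15645 kept), normalized by TMM and fitted with glmQLFit of edgeR 4.0.16 (non-legacy method, no covariates) in R 4.3.3, and the SE was derived from the F statistic. The fit was also run on counts simulated with its own dispersion estimates. Such a run cannot check how well the fit suits these embryos. Shares and ratios were computed from counts and compared by exact permutation over samples, with scipy 1.17.1 in Python 3.11.15, numpy 2.4.6 and pandas 2.3.3. Figures used matplotlib 3.10.9. No pair of libraries agreed within sampling noise (chi-square per degree of freedom 22.9 to 48.9). Exon lengths and sequences came from GENCODE M21 on GRCm38, matched by symbol (98.0% of genes); reads had been mapped to mm9 and no coordinates were converted. Older symbols in the files were matched to current ones for the lists.

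Named were the members, *Osr1*, the cartilage fibrillar and type VI chains, the genes called in each pathway list or, where none was, the 2 with the lowest p, and the 5 genes nearest in profile. Alternatives were DESeq2 1.42.0, RLE, upper quartile and non-collagen scaling, no filter, a minimum of 10 counts, an adjusted p under 0.05, transcript length offsets, the replicate number as a block, and leaving out each sample. The legacy and robust quasi-likelihood methods were added after seeing the data.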

Additional observations from a re-analysis of the deposited data

How the results depend on the processing

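With 285 genes called in all, the count was 508 by DESeq2, 127 with no filter, 130 at an adjusted p under 0.05 and 199 to 961 on leaving out a sample (199 without GCE/+ replicate 1, 961 without GCE/+ replicate 2, 748 without GCE/GCE replicate 1, 409 without GCE/GCE replicate 2). No member was called by edgeR, 3 were by DESeq2, and 0 to 2 were on leaving out a sample (*Col5a3* and *Col24a1* without GCE/+ replicate 2, *Col5a3* without GCE/GCE replicate 1, *Col24a1* without GCE/GCE replicate 2). Deviations of same-numbered samples correlated at -0.004 over 11180 genes, and whether the replicate numbers paired the samples cannot be told from this. Every member but *Col24a1* had its lower CPM in replicate 2 in both genotypes. With the replicate number as a block, 290 genes and 1 member were called (*Col5a3*, -0.84, adjusted p = 0.0924, edgeR), and 1 member (*Col5a3*, -0.90, adjusted p = 0.0626) with length offsets and the block. The smallest exact permutation p within replicate numbers was 0.5. The other scalings, the count minimum and the legacy and robust fits called no member. Over the tested genes with a length, log2 fold changes correlated with transcript length (Spearman 0.258). With length offsets and no block, every member's log2 fold change was lower than in the main fit. The values were -0.22 for *Col1a1*, -0.17 for *Col1a2*, -0.38 for *Col3a1*, -0.20 for *Col5a1*, -0.89 for *Col5a3* and 0.35 for *Col24a1*. Signs turned for *Col5a2* with length offsets without and with the block (-0.020 and -0.018), for *Col1a1* (0.027) and *Col5a1* (0.018) without GCE/GCE replicate 2, and for the *Col1a1* to *Col1a2* ratio without GCE/+ replicate 1 (0.015) or GCE/GCE replicate 2 (0.069). On leaving out each sample these 3 spanned -0.38 to 0.027, -0.20 to 0.018 and -0.16 to 0.069. *Col1a2* (-0.22 to -0.038), the *Col5a1* to *Col5a2* ratio (-0.22 to -0.062), the ratio to type VI (0.012 to 0.16), *Col3a1* (-0.43 to -0.25), *Col5a3* (-1.14 to -0.57), *Col24a1* (0.30 to 0.56), the member share (-4.18 to -3.03 points) and the ratio to cartilage fibrillar collagens (-1.28 to -0.66) kept their direction on leaving out each sample. Why the settings differed was not tested. Depth limits *Col5a3* most, at 192 to 449 counts.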
